A study of Mus musculus with 64 samples.

Results

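Binding was examined at 9 classical feedback targets of WNT signalling, namely Axin2, Nkd1, Rnf43, Znrf3, Lgr5, Notum, Dkk1, Sp5 and Sp8. The genes were chosen by name, from knowledge of the pathway and with earlier results of these data known. They make up 9 of the 21938 protein-coding genes of the GENCODE annotation. A locus was the gene body on the mm10 build with 30 kb on either side, and a peak was counted at a gene when its summit lay inside the locus. ChIP-seq, in which DNA recovered with an antibody against a protein is sequenced, had been done for SOX2 and β-catenin and for the TCF/LEF proteins LEF1, TCF7L1 and TCF7L2 (the labels write TCF3 and TCF4 for the last pair), in 60 libraries with 3 biological replicates per target and state. Naive ESC were wild-type (WT) cells of the XY HM1 TetON mouse embryonic stem cell line held in 2i, a medium whose GSK3 inhibitor keeps the WNT pathway active. CEpiLC were WT caudal epiblast-like cells, made with FGF and LGK974, a blocker of WNT secretion, to which the GSK3 inhibitor CHIR99021 was then added. SOX2-ON and SOX2-OFF cells came from a picked SOX2-TetON derivative of the same line, in which the endogenous Sox2 gene had been ablated and a doxycycline-dependent Sox2 transgene inserted at Hprt, with the rtTA activator at Rosa26. They were taken through the CEpiLC protocol while doxycycline was either maintained, at 1 µg/ml, in SOX2-ON or taken away in SOX2-OFF. The stem cells had been kept on feeder cells, which were removed by plating before use. All groups are labelled 72 h, and all 4 received a GSK3 inhibitor. Naive ESC and SOX2-ON are the states of high SOX2 and CEpiLC and SOX2-OFF those of low SOX2. Naive ESC and CEpiLC differ in medium as well as in SOX2, so that these cannot be told apart in WT cells.

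WNT ligands stop the destruction complex from degrading β-catenin, which then enters the nucleus and acts through DNA-bound TCF and LEF proteins. The genes examined here are switched on by this route, and most of their products act back on the pathway. Axin2 is a scaffold of the destruction complex, Nkd1 binds and inhibits dishevelled, Rnf43 and Znrf3 are ubiquitin ligases that remove frizzled receptors from the cell surface, Notum is a secreted enzyme that inactivates WNT ligands, and Dkk1 is a secreted inhibitor of the LRP co-receptors. Lgr5 is a receptor for R-spondins, which restrain Rnf43 and Znrf3, and Sp5 and Sp8 are zinc-finger transcription factors of the SP family.

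The site with β-catenin peaks in the most libraries was taken at each gene. Its sequence is shown because no other site of the locus had β-catenin peaks in more libraries. At Znrf3, Sp5 and Rnf43 other sites had as many. Ties were broken by the number of all 60 libraries with a peak, and then by peak strength. The letters are those of the + strand of GRCm38 (mm10), 75 bp either side of the middle summit. Capitals mark a TCF motif (CTTTGAA or CTTTGAT) or a SOX motif (CATTGT or CTTTGT) on either strand. A TCF and a SOX match can share bases at their ends, but neither can lie inside the other. The Sp5 site lies in a UTR, and it is shown as 29 bp around a TCF motif, which also hold a SOX motif.
Axin2, 41.5 kb downstream of the start, chr11:108961736-108961886: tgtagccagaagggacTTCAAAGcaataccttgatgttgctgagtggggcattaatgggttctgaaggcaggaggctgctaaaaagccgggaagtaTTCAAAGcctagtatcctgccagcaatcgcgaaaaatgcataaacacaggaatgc
Nkd1, 82.8 kb downstream, chr8:88604079-88604229: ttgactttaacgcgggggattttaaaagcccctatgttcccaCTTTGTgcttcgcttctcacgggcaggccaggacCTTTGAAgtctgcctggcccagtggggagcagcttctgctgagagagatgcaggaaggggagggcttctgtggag
Rnf43, 63.4 kb downstream, chr11:87726038-87726188: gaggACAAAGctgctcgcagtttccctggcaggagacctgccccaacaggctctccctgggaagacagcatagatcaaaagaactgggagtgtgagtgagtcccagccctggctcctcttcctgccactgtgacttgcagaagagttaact
Znrf3, 33.0 kb downstream, chr11:5411736-5411886: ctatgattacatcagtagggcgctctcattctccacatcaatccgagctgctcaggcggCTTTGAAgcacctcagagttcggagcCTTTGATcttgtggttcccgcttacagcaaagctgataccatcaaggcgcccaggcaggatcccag
Lgr5, 118.6 kb downstream, chr10:115469111-115469261: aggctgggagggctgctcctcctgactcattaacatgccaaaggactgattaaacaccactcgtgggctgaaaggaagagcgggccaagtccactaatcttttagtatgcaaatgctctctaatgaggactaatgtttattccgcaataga
Notum, 12.8 kb downstream, chr11:120648337-120648487: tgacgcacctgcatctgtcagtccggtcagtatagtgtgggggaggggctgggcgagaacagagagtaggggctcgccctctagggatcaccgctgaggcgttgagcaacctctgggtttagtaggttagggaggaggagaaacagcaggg
Dkk1, 4.8 kb upstream, chr19:30554407-30554557: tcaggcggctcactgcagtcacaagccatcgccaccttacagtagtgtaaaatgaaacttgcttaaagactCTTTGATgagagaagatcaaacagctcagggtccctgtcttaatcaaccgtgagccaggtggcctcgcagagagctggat
Sp5, at the start, chr2:70474962-70474990: agCTTTGTggaTTCAAAGgatttgctttc
Sp8, 10.1 kb downstream, chr12:118856329-118856479: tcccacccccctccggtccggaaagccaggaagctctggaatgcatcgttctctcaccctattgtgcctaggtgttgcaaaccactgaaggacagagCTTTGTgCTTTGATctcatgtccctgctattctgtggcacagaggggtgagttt

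Of these 9 windows, 6 held a TCF motif and 4 held a SOX motif. The windows at Lgr5 and Notum held neither, which says only that these letters are missing there. By position, 4 of the 9 sites lie in introns, namely those of Rnf43 (63.4 kb), Znrf3 (33.0 kb) and Lgr5 (118.6 kb) and, for Notum, an intron of the neighbouring transcript Myadml2os. The Notum site lies 0.3 kb from the start of the coding gene Myadml2 and 12.8 kb from that of Notum. The Rnf43 site lies 11.4 kb from the start of Supt4a, and the Nkd1 site 32.0 kb from that of Snx20. The Axin2 and Nkd1 sites lie 11 and 9.3 kb past the ends of the genes, and the Sp8 site 3.8 kb past the end. A further 4 sites are shown because their occupancy differed between states or, for the site at 0.9 kb, because it held the strongest TCF7L2 peak at Axin2. The Axin2 site at 0.9 kb overlaps a UTR of a transcript and is again shown as 29 bp.
Axin2, 27.2 kb upstream, chr11:108893107-108893257: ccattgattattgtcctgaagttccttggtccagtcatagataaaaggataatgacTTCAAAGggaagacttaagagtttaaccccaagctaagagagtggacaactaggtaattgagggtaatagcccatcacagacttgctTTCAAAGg
Axin2, 0.9 kb downstream, chr11:108921221-108921249: cggccggcgcgCTTTGATgtgcggggcgg
Sp5, 10.1 kb downstream, chr2:70484921-70485071: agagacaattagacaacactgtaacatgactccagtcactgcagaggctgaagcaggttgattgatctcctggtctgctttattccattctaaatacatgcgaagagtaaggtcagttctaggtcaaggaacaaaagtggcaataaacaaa
Sp5, 23.4 kb downstream, chr2:70498230-70498380: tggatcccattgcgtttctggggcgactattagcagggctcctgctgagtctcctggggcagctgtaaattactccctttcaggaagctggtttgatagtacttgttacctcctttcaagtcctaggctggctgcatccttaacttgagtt

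Both Axin2 windows held TCF motifs, and neither of the additional Sp5 windows held a TCF or SOX motif. Over all β-catenin sites at the 9 genes that were occupied in 3 of 3 libraries of a state, 20 of 45 (44.4%) had a TCF motif within 75 bp, against 34.6% of the 13078 such sites in the genome. In windows 5 kb away the share was 7 of 45 (15.6%) at the 9 genes and 6.35% in the genome. For TCF7L1 the share at the 9 genes was 18 of 35 (51.4%) and in the genome 37.6%. For SOX2 sites, a TCF motif was found at 9 of 28 (32.1%) against 14% in the genome, with 14.3% and 6.44% of windows 5 kb away, while a SOX motif was found at 14 of 28 (50.0%) against 50.9%. These shares are descriptions, and sites of a gene are not replicates.

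The peak lists ranged from 1628 to 991719 peaks per library with a median of 106232, so the 20000 peaks with the highest fold were used from each list. The fold is the peak caller's ratio of summit signal over local background. Of the 60 lists, 10 held fewer than 20000 peaks, among them β-catenin replicates 2 and 3 and LEF1 replicates 1 and 2 of CEpiLC and, with 3423 and 1628 peaks, β-catenin replicate 2 of SOX2-OFF and TCF7L1 replicate 1 of CEpiLC. The lists contain no read counts, which leaves the depth unknown, and no transcript levels, so that neither the Sox2 level nor markers of cell identity could be checked. Fewer cells with a bound site and weaker binding in every cell cannot be told apart. Of the 1094874 strongest peaks of all libraries, 2049 lay at the 9 genes, where they formed 465 sites, 63 of them occupied in 3 of 3 libraries of some target and state. Of these 63 sites, 28 were intergenic and 28 intronic, 10 lay within 1 kb of the start of the gene and 26 within 10 kb. The loci are of unequal length, from 62807 bp (Sp5) to 228524 bp (Znrf3), and a longer locus has more chance of holding a peak.

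Feedback genes carried some of the strongest β-catenin peaks of the genome. Loci were ranked by their strongest peak, with rank 1 for the highest fold in a library. A locus with none of the 20000 strongest peaks was placed after them and is given as having no ranked peak. In a list of fewer than 20000 peaks even a peak of low fold can take a strong rank, so ranks there are less comparable. By the geometric mean rank over the 12 β-catenin libraries Sp5 stood at place 14 of 21938 genes, Axin2 at 160, Znrf3 at 234 and Nkd1 at 652. Lgr5, Rnf43, Sp8, Dkk1 and Notum followed at places 1147, 1555, 1828, 2674 and 3696. Peaks of β-catenin were among the 20000 strongest in all 12 libraries at 5 of the 9 genes, compared with 7.46% of all protein-coding genes and 7 of 49 other WNT pathway genes (14.3%). The median of the geometric mean ranks was 1796 for the 9 genes, 7856 for the other WNT genes and 13957 for all genes. The same count for the other targets was 6 of 9 genes for SOX2 (all genes 14.1%), 4 of 9 for LEF1 (3.22%), 5 of 9 for TCF7L1 (3.41%) and 6 of 9 for TCF7L2 (12.3%).

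**Figure D1:**
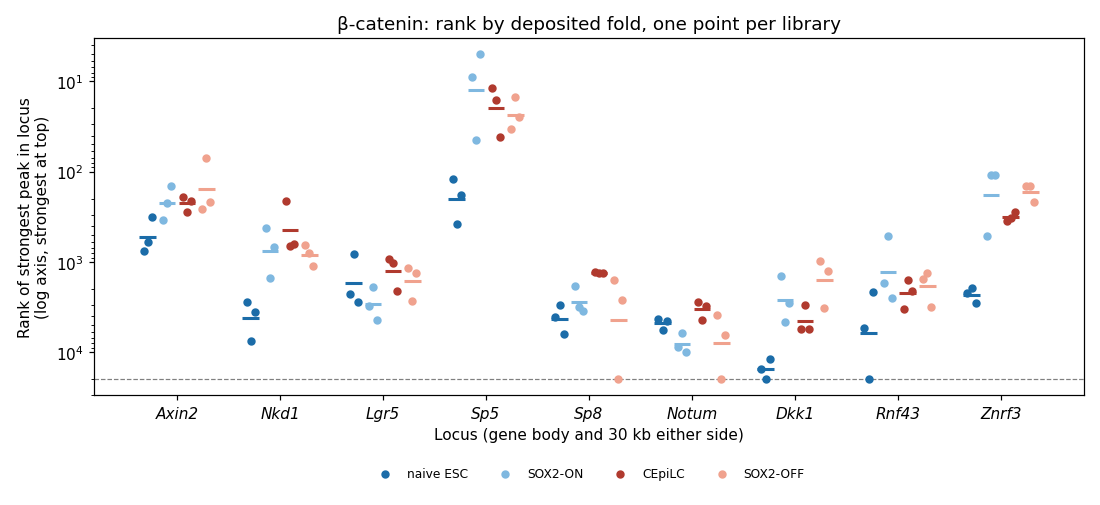
Rank of the strongest β-catenin peak at each of the 9 loci. The vertical axis is the rank by fold within a library on a log scale, strongest at the top; each point is 1 of 3 libraries of a state, each bar the geometric mean, and the dashed line rank 20000. Sp5 lies highest, with all 12 libraries between rank 5 and 377, and the naive ESC points lie below all others at Nkd1, Sp5, Dkk1 and Znrf3.

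Axin2, the destruction complex scaffold, lies at chr11:108920349-108950783 and had a β-catenin peak among the 761 strongest of every library, but at different places in different states. The highest β-catenin fold was 38.0, 24.6 and 51.2 in naive ESC, 38.6, 34.4 and 56.0 in SOX2-ON, 40.1, 41.6 and 43.5 in CEpiLC and 53.2, 28.2 and 66.2 in SOX2-OFF. The folds overlapped between all states. In naive ESC the strongest summit lay 27.2 kb upstream in 2 libraries and 41.5 kb downstream in 1, whereas in all 9 libraries of the other states it lay within 1 kb of the start. At the site 27.2 kb upstream, whose sequence holds a pair of TCF motifs, the β-catenin fold was 38.0, 24.2 and 51.2 in naive ESC, 19.5, 9.18 and 21.7 in SOX2-ON, 8.28 and 4.98 in CEpiLC replicates 1 and 2, with no peak in replicate 3, and 15.7 and 17.3 in SOX2-OFF replicates 1 and 3, with no peak in replicate 2. TCF7L1 folds at this site were 56.3, 50.5 and 111 in naive ESC and 6.19, 12.2 and 19.8 in SOX2-ON, and no CEpiLC list held a TCF7L1 peak there. The naive ESC folds thus lay above those of the other states for both proteins. The site 0.9 kb downstream, in contrast, carried the strongest TCF7L2 peak of the locus in 12 of 12 libraries, with folds from 42.2 to 120. The site 13.4 kb upstream was found by β-catenin in 3 CEpiLC and 2 SOX2-OFF libraries and in no naive ESC list, and the intronic site at 27.3 kb in all 3 naive ESC libraries and in no CEpiLC list. At 9.3 kb upstream, SOX2 was among the strongest peaks in 3 of 3 SOX2-ON libraries and in none of the other 9.

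**Figure D2:**
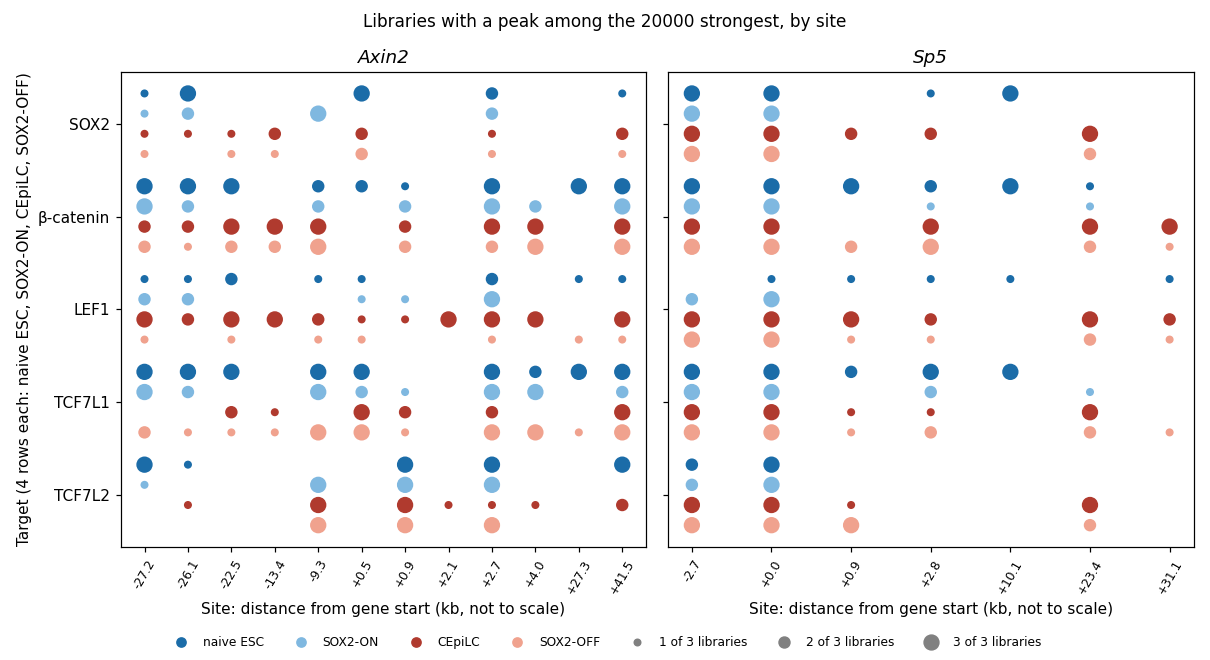
Occupied sites at Axin2 and Sp5. Each column is a site at the stated distance from the gene start in kb (columns are not to scale), each group of 4 rows a target, and each dot the number of libraries of a state (1, 2 or 3) with a peak among the 20000 strongest; sites with 3 of 3 libraries in some target and state are shown. At Axin2 the column at 13.4 kb upstream holds no naive ESC dot, and at Sp5 the column at 10.1 kb downstream holds naive ESC dots only.

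Nkd1, the dishevelled inhibitor, lies at chr8:88521354-88594884. Its leading site, 82.8 kb from the start and 9.3 kb past the gene end, had a peak in 49 of 60 libraries and in 12 of 12 β-catenin libraries. The β-catenin rank of the locus was 2765, 7648 and 3634 in naive ESC, 418, 1530 and 693 in SOX2-ON, 210, 666 and 635 in CEpiLC and 646, 810 and 1103 in SOX2-OFF. All naive ESC libraries were thus weaker than the other 9 by rank. The folds overlapped, at 20.3, 7.88 and 14.5 in naive ESC against 13.4 in SOX2-ON replicate 2 and 9.40 in SOX2-OFF replicate 2, the list of 3423 peaks. The TCF7L1 rank was 2914, 10910 and 15481 in naive ESC and 962, 113 and 181 in CEpiLC, which did not overlap, and 235, 1136 and 317 in SOX2-ON. For SOX2, the site 26.0 kb upstream was occupied in 3 CEpiLC libraries and in no naive ESC list of any length, while sites 8.9 kb upstream and 76.5 kb downstream were among the strongest peaks in all 3 SOX2-ON libraries and in no SOX2-OFF library. The SOX2 site at 76.5 kb was shared with none of the strongest peaks of the other 4 proteins.

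The frizzled ubiquitin ligase genes differed in strength. Znrf3, at chr11:5276324-5444847, had β-catenin folds of 22.6, 14.2 and 16.9 in naive ESC, 32.6, 45.6 and 62.4 in SOX2-ON, 32.2, 39.1 and 37.4 in CEpiLC and 66.8, 22.5 and 65.9 in SOX2-OFF. The means were 17.9 ± 4.29 (SD, n = 3), 46.8 ± 15.0, 36.2 ± 3.58 and 51.7 ± 25.3 in the same order. By rank, every naive ESC library (1957 to 2832) was weaker than every other library (109 to 517), while by fold naive ESC replicate 1 lay just above SOX2-OFF replicate 2. The leading intronic site at 33.0 kb, whose window holds a pair of TCF motifs, had a peak in 55 of 60 libraries, and for SOX2 it was among the strongest peaks in 3 of 3 SOX2-ON, CEpiLC and SOX2-OFF libraries and in no naive ESC library, although 2 naive ESC lists held a weaker SOX2 peak there. Sites at 120.5 kb, in an intron of Znrf3, and at 196.3 kb, in an intron of the neighbour Kremen1, were occupied by SOX2 in all 3 SOX2-ON libraries and in no SOX2-OFF list. TCF7L2 had its strongest peak 5 bp from the Znrf3 start in 12 of 12 libraries.

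Rnf43, at chr11:87662722-87735539, was weaker. Its β-catenin ranks were 5487, no ranked peak and 2161 in naive ESC, 1718, 516 and 2497 in SOX2-ON, 3318, 1581 and 2095 in CEpiLC and 1556, 1341 and 3146 in SOX2-OFF, and all states overlapped. The LEF1 ranks were 18666, 5665 and 10857 in naive ESC, no ranked peak, 9710 and 12079 in SOX2-ON, 1052, 557 and 885 in CEpiLC and 551, 768 and 6549 in SOX2-OFF. Within each cell line the LEF1 ranks did not overlap and were stronger in low SOX2 (background 8.94% of genes in WT cells and 5.04% in the TetON line). Across the lines the ranks of high and low SOX2 overlapped through SOX2-OFF replicate 3 and naive ESC replicate 2. SOX2 binding at Rnf43 was the weakest of the 9 genes, at place 10436 of 21938. A site 14.1 kb past the gene end, 87.0 kb from the start, had β-catenin peaks in 3 of 3 CEpiLC and 3 of 3 SOX2-OFF libraries and in no naive ESC or SOX2-ON library among the strongest, with weaker peaks in 1 naive ESC list and 2 SOX2-ON lists. The nearest coding start to this site is that of Tspoap1, 10.9 kb away.

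Lgr5, the R-spondin receptor gene at chr10:115450311-115587780, had the same leading SOX2 peak in every state. An intronic site at 118.6 kb, which lies 84.2 kb from the nearest coding start, held the strongest SOX2 peak of the locus in 12 of 12 libraries. The SOX2 fold there was 16.4, 16.3 and 18.9 in naive ESC (mean 17.2 ± 1.49), 12.5, 7.65 and 14.6 in SOX2-ON (11.6 ± 3.58), 38.6, 40.3 and 24.3 in CEpiLC (34.4 ± 8.76) and 22.8, 14.4 and 51.1 in SOX2-OFF (29.4 ± 19.2; SD, n = 3 each). The ranks were 3256, 2619 and 1602, then 3176, 9788 and 3475, then 77, 133 and 640, and then 172, 1513 and 105. All 6 libraries of low SOX2 ranked stronger than all 6 of high SOX2, whereas the folds overlapped through SOX2-OFF replicate 2. The β-catenin fold at the site was 22.6, 21.7 and 17.1 in naive ESC, 7.96, 11.9 and 10.3 in SOX2-ON, 20.9, 18.8 and 9.64 in CEpiLC and 16.9, 4.46 and 22.7 in SOX2-OFF. SOX2-ON was lowest in its mean, but only the naive ESC folds lay wholly above it. TCF7L1 peaks were found there in 12 of 12 libraries as well. A site 1.1 kb into the gene was the main TCF7L2 site, strongest in 9 of the 11 libraries with a TCF7L2 peak.

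**Figure D3:**
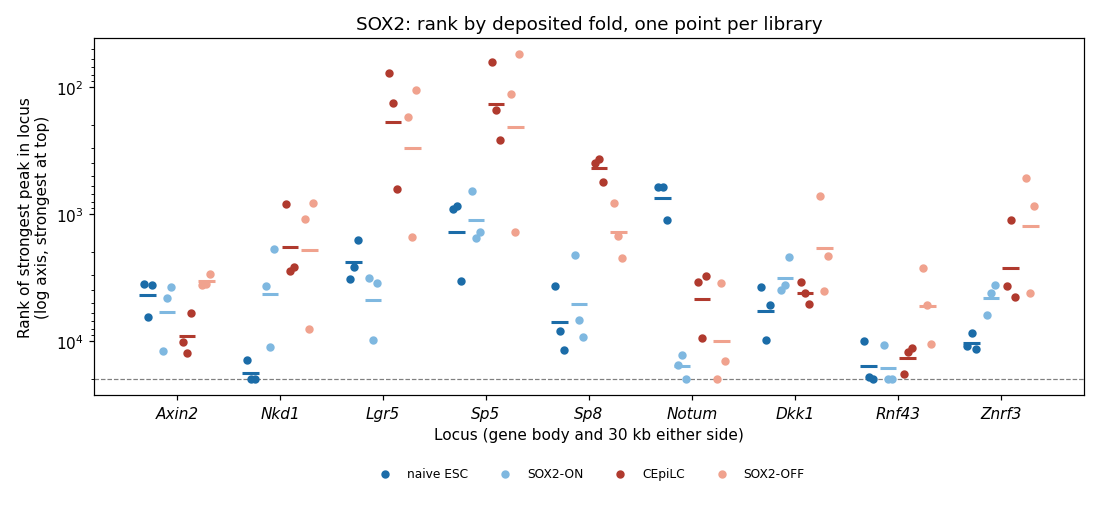
Rank of the strongest SOX2 peak at each of the 9 loci, plotted as for β-catenin (log axis, strongest at the top, 1 point per library, bars for geometric means). At Lgr5 all 6 CEpiLC and SOX2-OFF points (ranks 77 to 1513) lie above all 6 naive ESC and SOX2-ON points (1602 to 9788), while at Notum the 3 naive ESC points (614 to 1124) lie above all others.

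Of the 9 genes, those of the secreted inhibitors, Notum and Dkk1, had the weakest β-catenin binding by mean rank. At Notum (chr11:120653788-120661175) the SOX2 fold was 27.7, 28.9 and 21.9 in naive ESC at ranks 614, 616 and 1124, against ranks of 15398, 12911 and no ranked peak in SOX2-ON, 3413, 9431 and 3096 in CEpiLC and no ranked peak, 3502 and 14328 in SOX2-OFF. Notum was the only one of the 9 genes at which every naive ESC library had a stronger SOX2 peak, by rank, than every library of the other states (background 5.16%). A site 2.7 kb upstream was occupied in 3 of 3 naive ESC libraries by SOX2, β-catenin and TCF7L1, and CEpiLC had no β-catenin or TCF7L1 peak there in any list. The strong TCF7L2 rank of the locus, with a geometric mean of 256, belonged in 12 of 12 libraries to a site 0.1 kb from the start of Mafg, 1 of 5 other coding genes in the locus. Dkk1 (chr19:30545863-30549665) had β-catenin ranks of 15638, no ranked peak and 12053 in naive ESC, 1438, 4714 and 2868 in SOX2-ON, 5536, 3018 and 5519 in CEpiLC and 977, 3290 and 1257 in SOX2-OFF. All naive ESC libraries were weaker than the other 9 at Dkk1 by rank. The folds overlapped, at 6.84, 5.93 and 6.97 in naive ESC against 5.58 in CEpiLC replicate 3 and 3.82 in SOX2-OFF replicate 2, which are both short lists. The strongest SOX2 peak of Dkk1 lay 4.2 kb upstream in 10 of 12 libraries, and a site 0.1 kb from its start, in the UTR, was occupied by SOX2 among the strongest peaks in 3 CEpiLC libraries and in no naive ESC library.

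Among the SP-family genes, Sp5 (chr2:70474923-70477729) was the most strongly bound of the 9 genes by SOX2, β-catenin, TCF7L1 and TCF7L2. The site at its start had a peak in 58 of 60 libraries and was the strongest of the locus in 12 of 12 libraries for β-catenin, TCF7L1 and TCF7L2. Its β-catenin fold was 72.1, 29.6 and 62.9 in naive ESC (54.9 ± 22.4), 117, 59.6 and 145 in SOX2-ON (107 ± 43.5), 71.3, 120 and 84.3 in CEpiLC (91.9 ± 25.3) and 101, 50.2 and 132 in SOX2-OFF (94.3 ± 41.2; SD, n = 3 each). The folds overlapped between states, but the ranks of 120, 377 and 180 in naive ESC were all weaker than the 9 ranks of 5 to 45 elsewhere. The SOX2 fold at the start was 10.4, 19.5 and 10.5 in naive ESC, 22.6, 17.1 and 21.1 in SOX2-ON, 39.4, 38.4 and 36.5 in CEpiLC and 28.1, 15.0 and 66.6 in SOX2-OFF, so that CEpiLC lay above naive ESC and SOX2-ON in every library. In naive ESC the strongest SOX2 peak of the locus lay instead at 10.1 kb in 2 of 3 libraries.

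The sites 10.1 and 23.4 kb downstream of Sp5 were occupied in opposite states. The site at 10.1 kb had SOX2 folds of 24.9, 25.7 and 10.8 and β-catenin folds of 17.9, 10.3 and 17.8 in the 3 naive ESC libraries, and no CEpiLC list held a SOX2 or β-catenin peak there. The site at 23.4 kb lies in an intron of Gad1os, 10.5 kb from the start of the coding gene Erich2. It had SOX2 folds of 12.5, 14.4 and 20.2 in CEpiLC and 13.1, 6.16 and 17.8 in SOX2-OFF, and no naive ESC or SOX2-ON list held a SOX2 peak. Its β-catenin folds were 29.9, 36.3 and 27.4 in CEpiLC, and 30.1 and 55.5 in SOX2-OFF replicates 1 and 3, with no peak in replicate 2, the list of 3423 peaks. One naive ESC and 1 SOX2-ON library had a β-catenin peak among the strongest at this site.

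Sp8 (chr12:118846329-118852576) was bound by β-catenin at 10.1 kb, which held the strongest peak in all 11 libraries with one. The β-catenin ranks were 4099, 3044 and 6308 in naive ESC, 1869, 3198 and 3536 in SOX2-ON, 1294, 1324 and 1342 in CEpiLC and 1587, no ranked peak and 2644 in SOX2-OFF. The SOX2 ranks were 3692, 8392 and 11753 in naive ESC, 2101, 6831 and 9326 in SOX2-ON, 394, 372 and 564 in CEpiLC and 813, 1502 and 2206 in SOX2-OFF. CEpiLC was the strongest state for SOX2 in every library, and SOX2-OFF overlapped SOX2-ON only through replicate 3. A SOX2 site in the UTR at 4.3 kb was occupied in 3 CEpiLC libraries and in no naive ESC list.

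The question whether SOX2 level goes with binding at these genes was put to ranks in the 12 libraries of each target, high (naive ESC, SOX2-ON) against low SOX2, with labels permuted within each cell line. The exact two-sided test has 400 assignments and cannot give p below 0.005. After adjustment by Benjamini-Hochberg over all genes tested, 0 of 9 genes passed 0.05 for SOX2 (background 0% of 20306 genes), β-catenin (0% of 20156), LEF1 (0% of 20874), TCF7L1 (0% of 20551) or TCF7L2 (0% of 20793). Without adjustment, 20.4%, 19.1%, 7.76%, 12% and 7.97% of all genes had p below 0.05 for these targets, and 5, 1, 4, 5 and 2 of the 9 genes.

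For SOX2 itself, 7 of the 9 genes had the weaker mean rank in the high-SOX2 states, against 12072 of 20306 genes tested. The difference in log10 rank at Lgr5 was 1.15 ± 0.23 (SE), a 14.2-fold difference in geometric mean rank (exact permutation p = 0.005, adjusted p = 0.0665). At Sp8 it was 0.89 ± 0.17 and at Sp5 0.87 ± 0.23 (exact p = 0.01 and adjusted p = 0.1 for both). At Nkd1 it was 0.67 ± 0.24 and at Znrf3 0.58 ± 0.19 (exact p = 0.02 and 0.015, adjusted p = 0.131 and 0.129). Axin2 (−0.04 ± 0.14) and Notum (−0.30 ± 0.33) had the opposite sign, with exact p of 0.815 and 0.22. The median difference was 0.58 over the 9 genes, 0.08 over 49 other WNT genes and 0.04 over all genes tested.

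For β-catenin all 9 genes had the weaker mean rank in the high-SOX2 states, against 9230 of 20156 genes tested. The median difference was 0.26, against 0.10 for the other WNT genes and −0.02 for all genes. Dkk1 had the only unadjusted p below 0.05 (difference 0.38 ± 0.23, exact p = 0.03, adjusted p = 0.184). Within the lines the values differed. In WT cells the median difference, CEpiLC minus naive ESC, was −0.51 with all 9 genes stronger in CEpiLC. Of all genes tested, 8990 of 18219 were stronger in CEpiLC, with a median of 0.00. In the TetON line the median of SOX2-ON minus SOX2-OFF was 0.01 (all genes −0.03), with 5 genes weaker and 4 stronger in SOX2-ON. In the test of the difference between lines, Sp5 gave −1.27 (exact p = 0.03) and Nkd1 −1.02 (exact p = 0.045), with adjusted p of 0.454 for both. Of all genes in this test, 1595 of 20156 had an unadjusted p below 0.05.

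Groups that did not overlap at all by rank were then counted, with the share of all tested genes as background. Every CEpiLC library had the stronger rank than every naive ESC library at 5 of 9 genes for SOX2 (Nkd1, Lgr5, Sp5, Sp8, Znrf3; background 18.3%), 6 for β-catenin (Axin2, Nkd1, Sp5, Sp8, Dkk1, Znrf3; 19.4%), 7 for LEF1 (all but Lgr5 and Sp5; 8.94%), 3 for TCF7L1 (Nkd1, Sp5, Znrf3; 3.27%) and 1 for TCF7L2 (Znrf3; 8.50%). Every SOX2-OFF library was stronger than every SOX2-ON library at 3 genes for SOX2 (Axin2, Lgr5, Rnf43; background 12.6%), 0 for β-catenin (5.52%), 1 for LEF1 (Rnf43; 5.04%), 4 for TCF7L1 (Lgr5, Sp5, Dkk1, Rnf43; 7.97%) and 0 for TCF7L2 (3.75%). In the reverse direction, every CEpiLC library was weaker than every naive ESC library at Notum for SOX2 (1 gene; background 13.5%), TCF7L1 (1; 21.5%) and TCF7L2 (1; 6.92%), and at 0 genes for β-catenin (19.6%) and LEF1 (6.88%). Every SOX2-OFF library was weaker than every SOX2-ON library at 0 of the 9 genes for SOX2 (9.59%), β-catenin (10.2%), LEF1 (4.55%), TCF7L1 (5.14%) and TCF7L2 (7.15%). Lgr5 was the only gene among the 9 with SOX2 ranks apart in both lines, and the share of all genes apart in both was not counted. For β-catenin every naive ESC library was weaker than the 9 others at 4 genes (Nkd1, Sp5, Dkk1, Znrf3), against 2.05% of all genes. With 3 against 3 libraries the exact test cannot go below p = 0.1, so these are counts without a significant test. They hold for ranks, and not all of them for folds. By fold, CEpiLC and naive ESC overlapped for β-catenin at Axin2, Sp5, Sp8 and Dkk1 and for LEF1 at Notum, Dkk1 and Rnf43. They also overlapped for TCF7L1 at Nkd1, Sp5 and Znrf3 and for SOX2 at Znrf3. Most short lists were of CEpiLC or SOX2-OFF, and a low fold there can take a strong rank.

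By rank, LEF1 and TCF7L1 followed the same sign at most genes. For LEF1 all 9 genes had the weaker mean rank in the high-SOX2 states, against 9501 of 20874 genes tested (median 0.50, other WNT genes 0.02, all genes −0.02). The largest differences were at Rnf43 (1.05 ± 0.18, 11.1-fold, exact p = 0.005, adjusted p = 0.263), Sp8 (0.94 ± 0.23, exact p = 0.02, adjusted p = 0.388) and Znrf3 (0.70 ± 0.19, exact p = 0.01, adjusted p = 0.37). The LEF1 difference at Notum was 0.45 ± 0.20 (exact p = 0.045, adjusted p = 0.536). By line, the median LEF1 difference was −0.90 for CEpiLC minus naive ESC (all genes 0.06). Of the 9 genes, 8 were stronger in CEpiLC, against 7879 of 19592 genes tested. For SOX2-ON minus SOX2-OFF the median was 0.14 (all genes 0.02). Here 7 of the 9 genes were weaker in SOX2-ON, against 10636 of 20227 genes tested. For TCF7L1 7 of the 9 genes had the weaker mean rank in high SOX2, against 10659 of 20551 genes tested. The median difference was 0.38, against 0.04 for the other WNT genes and 0.01 for all genes. The largest TCF7L1 difference was that of Nkd1, at 0.78 ± 0.34 (6.03-fold, exact p = 0.045, adjusted p = 0.345). It was 0.47 ± 0.14 at Sp5 (exact p = 0.005, adjusted p = 0.152), 0.58 ± 0.28 at Znrf3 (exact p = 0.015, adjusted p = 0.242) and 0.43 ± 0.15 at Lgr5 (exact p = 0.02, adjusted p = 0.242). The TCF7L1 differences at Sp5, Znrf3 and Lgr5 had the opposite sign when the fold itself was compared in place of the rank. On the log2 scale, signed like ranks so that negative means a higher fold in high SOX2, they were −0.31, −0.09 and −0.57. At Sp5, for example, the TCF7L1 folds were 41.4, 40.5 and 91.9 in naive ESC at ranks 1084, 657 and 687, and 15.9, 41.9 and 24.6 in CEpiLC at ranks 279, 62 and 208. Notum (−0.32 ± 0.11, exact p = 0.04, adjusted p = 0.345) and Axin2 (−0.17 ± 0.08, exact p = 0.13, adjusted p = 0.52) had the stronger mean TCF7L1 rank in high SOX2. For TCF7L2 the difference was 0.31 ± 0.10 at Znrf3 and 0.47 ± 0.21 at Sp5 (exact p = 0.02 and 0.04, adjusted p = 0.435 and 0.536). The mean TCF7L2 rank was weaker in high SOX2 at 8 of 9 genes, against 9165 of 20793 genes tested. The median difference was 0.21 for the 9 genes, 0.05 for the other WNT genes and −0.03 for all genes.

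**Figure D4:**
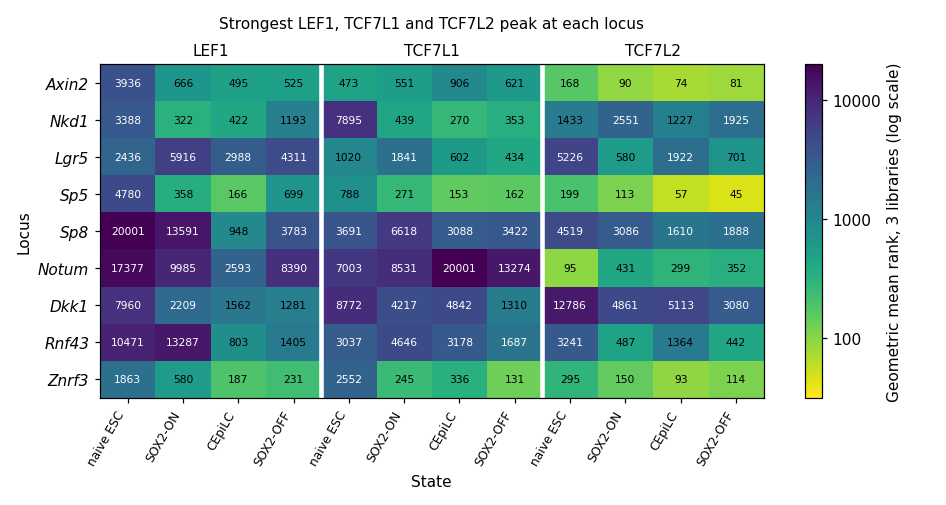
Geometric mean rank of the strongest LEF1, TCF7L1 and TCF7L2 peak at each locus by state (3 libraries each; colour on a log scale, yellow strongest). The LEF1 column of CEpiLC holds values of 166 (Sp5) to 2988 (Lgr5), whereas the naive ESC column starts at 1863 (Znrf3) and ends at Sp8, which had no peak among the 20000 strongest in any of the 3 libraries.

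At the level of single sites, a site was called when 3 of 3 libraries of a state and 0 of 3 of the other had a peak among the 20000 strongest, out of sites occupied in at least 3 of the 6 libraries. Between naive ESC and CEpiLC, 7 of 26 SOX2 sites at the 9 genes were found in CEpiLC only (26.9%, background 17.9%) and 1 of 26, the Sp5 site at 10.1 kb, in naive ESC only (3.85%, background 17.0%). For β-catenin 9 of 49 were CEpiLC sites (18.4%, background 21.6%) and 4 of 49 naive ESC sites (8.16%, background 29.9%). For LEF1 15 of 34 sites were CEpiLC sites (44.1%, background 42.4%) and 0 were naive ESC sites (background 0.330%). For TCF7L1 1 of 32 was a CEpiLC site (the Sp5 site at 23.4 kb; background 0.810%) and 12 of 32 naive ESC sites (37.5%, background 71.7%). For TCF7L2 7 of 24 were CEpiLC sites (29.2%, background 15.0%) and 1 of 24 a naive ESC site (the Axin2 site 27.2 kb upstream; 4.17%, background 7.48%). The naive ESC share was thus below the background for all targets with a naive ESC site called.

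Between SOX2-ON and SOX2-OFF, 6 of 22 SOX2 sites were SOX2-ON sites (27.3%, background 39.1%) and 1, at Lgr5 1.1 kb, was a SOX2-OFF site (4.55%, background 5.97%). The SOX2-ON sites were those of Nkd1 at 8.9 and 76.5 kb, Znrf3 at 120.5 and 196.3 kb, Axin2 at 9.3 kb and Sp8 at 7.7 kb. For β-catenin 0 of 35 sites were SOX2-ON sites (background 20.8%) and 1, at Rnf43 87.0 kb, was a SOX2-OFF site (2.86%, background 2.68%). In either direction, 1 of 13 LEF1 sites (Nkd1 at 26.0 kb upstream, SOX2-ON; background 34.9%), 2 of 31 TCF7L1 sites (background 8.88%) and 1 of 19 TCF7L2 sites (Sp5 at 0.9 kb, SOX2-OFF; background 9.96%) were called. A call does not mean that the site was empty in the other state: in the full lists no peak of any strength was present there at 4 of the 8 SOX2 and 6 of the 13 β-catenin sites called between naive ESC and CEpiLC, and at 3 of the 7 SOX2 sites called between SOX2-ON and SOX2-OFF.

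**Figure D5:**
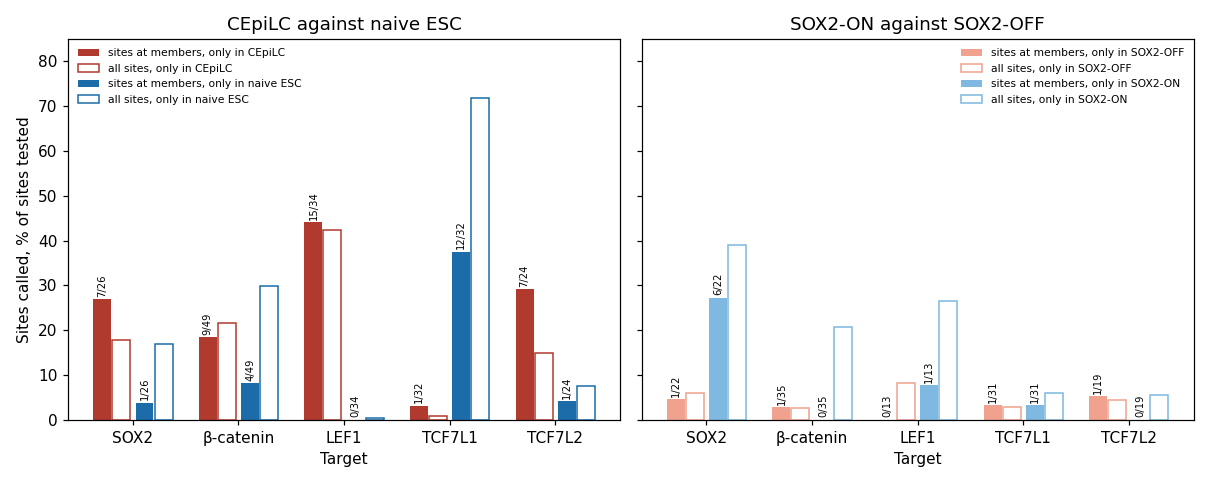
Percent of tested sites called in one state only, for the 9 loci (filled bars, with called and tested sites above) and for all sites of the genome (open bars), by target. At the 9 loci the bar for β-catenin sites of SOX2-ON is 0 of 35, against 20.8% of all sites.

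The other WNT pathway genes had weaker peaks by median rank than the 9 feedback genes for every target. Their medians of the geometric mean rank were 8817 for SOX2, 8491 for LEF1, 10135 for TCF7L1 and 9212 for TCF7L2, against 3528, 2436, 837 and 987 for the 9 genes. In the comparison of high with low SOX2, 13 of the 49 were weaker and 4 stronger in high SOX2 for SOX2 peaks at an unadjusted p below 0.05, and 9 and 3 for β-catenin, and none passed after adjustment. One of the 49, Kremen1, shares part of its locus with Znrf3.

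The pattern of the 9 genes was also described over all 60 libraries, as the mean of their log10 ranks. Among protein-coding genes whose locus touches none of the 9, Dmbx1 (Spearman's rho 0.85), Gdi2 (0.82) and Trpm8 (0.79) were among the 5 with the most similar ranks. Of the 9 genes themselves, Znrf3 followed the mean of the other 8 most closely (0.77), then Sp5 (0.68), Axin2 and Rnf43 (0.67 each), Nkd1 (0.45) and Sp8 (0.41), and Dkk1 (0.29), Notum (0.18) and Lgr5 (0.16) followed it least. These libraries share list lengths and targets, so the values are descriptions.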

How the data were processed

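Per the study's methods, the authors ran single-end reads of 76 bp through nf-core/chipseq, with BWA alignment to mm10, and called narrow peaks in each library with MACS2 (named in the submitters' processing notes), keeping q-values below 0.05 and pooling no replicates. Which of the 4 input samples was the control of which library is not given in the sources used here, and inputs were not analysed. The deposited lists give, for each peak, the fold, a ratio to local background, and the −log10 p-value and −log10 q-value at the summit. The authors' read counts over consensus peaks were not used here, so their count test could not be made and read depth is unknown. The precision therefore rests on 3 libraries per group.

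Groups were taken from the sample labels. The 9 genes, the 49 other WNT genes and the tests were chosen with earlier results of these data known. In each library the 20000 peaks of highest fold were kept (all peaks where a list was shorter). Summits of all libraries at most 200 bp apart were joined into sites. All 9 genes were named, with the site of most β-catenin libraries. Of the sites called for SOX2 or β-catenin, some are not reported here. Of the 5 genes of most similar rank, some are not reported here. Gene models were GENCODE M21 on GRCm38. Ranks were tested for every protein-coding gene with a peak in at least 1 of the compared libraries, by exact permutation tests with Benjamini-Hochberg adjustment over those genes (Python 3.11.15, numpy 2.4.6, pandas 2.3.3, scipy 1.17.1, pysam 0.24.0). The test was checked on simulated data. Alternatives were another ranking, a −log10 q-value of at least 5, 10 kb flanks, joining at 100 or 500 bp, the 10000 strongest or all peaks, the fold in place of the rank, leaving out a replicate, and a replicate block. Absence in the full lists was added after seeing the data.

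Replicate numbers recur across groups. The correlation of deviations between libraries of the same number ranged from −0.03 to 0.21, and all 3 exceeded 0.1 in 1 of 10 comparisons (TCF7L1, SOX2-ON and SOX2-OFF), where the pairing was taken from the data. All 6 libraries correlated best with their own number for SOX2 in WT cells, though with r of only 0.01 to 0.02. The same held in the TetON line for SOX2, β-catenin, LEF1 and TCF7L1.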

Additional observations from a re-analysis of the deposited data

How the results depend on the processing

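No gene of the 9 passed the adjusted threshold for any target under another ranking, threshold, flank or measure, with a replicate left out or with the replicate block, and the lowest adjusted p over all genes and these settings was 0.0611 (SOX2), 0.0661 (β-catenin), 0.114 (LEF1), 0.151 (TCF7L1) and 0.308 (TCF7L2). Of the 43 rank differences named at these genes, all 43 kept their direction under the other rankings, flanks and thresholds, without any 1 replicate and under the block, and 38 kept it with the fold. The 5 that turned were TCF7L1 values, given here on the log2 scale. They are signed like ranks, so that a positive value means a lower fold in the first group. They were Sp5 and Znrf3 in CEpiLC minus naive ESC (1.08 and 0.69). The others were Lgr5, Sp5 and Znrf3 in high minus low SOX2 (−0.57, −0.31 and −0.09). The cause was not tested. Without a replicate the smallest possible p is 0.0556.

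The counts of sites called at the 9 genes depended more on the settings. Without 1 replicate the rule is 2 of 2 libraries against 0 of 2, which is looser by construction. Between naive ESC and CEpiLC the counts were then 10 to 19 SOX2 sites (8 with all replicates), 17 to 24 β-catenin sites (13), 16 to 30 LEF1 sites (15), 15 to 21 TCF7L1 sites (13) and 8 to 12 TCF7L2 sites (8). Between SOX2-ON and SOX2-OFF they were 10 to 12 SOX2 sites (7), 4 to 8 β-catenin sites (1), 3 to 6 LEF1 sites (1), 3 to 4 TCF7L1 sites (2) and 1 to 3 TCF7L2 sites (1). The highest count came without replicate 2 for SOX2 in WT cells and β-catenin in the TetON line, without replicate 3 for β-catenin in WT cells and for LEF1 and TCF7L2 in the TetON line, and without replicate 1 for the others. With absence asked in the full lists, the WT counts were 4, 6, 3, 8 and 3 and the TetON counts 3, 0, 0, 1 and 0, in the same order of targets. With all deposited peaks, the counts that moved by over 1.5 times were 8 (β-catenin), 4 (LEF1) and 4 (TCF7L2) in WT cells and 0 (LEF1), 1 (TCF7L1) and 0 (TCF7L2) in the TetON line. With the 10000 strongest they were 8 for TCF7L1 and 4 for TCF7L2 in WT cells and 4 for SOX2, 1 for TCF7L1 and 0 for TCF7L2 in the TetON line. With 10 kb flanks they were 8 for β-catenin and 4 for TCF7L2 in WT cells and 0 (β-catenin), 0 (LEF1) and 1 (TCF7L1) in the TetON line. Ranking by −log10 p gave 0 for LEF1, 1 for TCF7L1 and 2 for TCF7L2, and a −log10 q of at least 5 gave 0 for TCF7L2, all in the TetON line. Joining at 100 or 500 bp moved no count by over 1.5 times.

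With the replicate block the smallest possible p of high against low SOX2 is 0.0312, and 9 of 17 named differences with an unadjusted p below 0.05 were still below 0.05. The block changed no call, since 0 of 9 genes passed for any target with or without it. Read depth is not given by the lists, and 10 lists shorter than 20000 peaks limit what absence at a site can show. They also make ranks less comparable, since a peak of low fold can take a strong rank in a short list. At Dkk1 a β-catenin fold of 3.82 had rank 3290 in SOX2-OFF replicate 2. A fold of 6.84 had rank 15638 in naive ESC replicate 1. Apart from TCF7L1 replicate 2 of SOX2-ON, the short lists were all of CEpiLC or SOX2-OFF.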

Other observations

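Over the peaks among the 20000 strongest that lay in the gene bodies of the 9 genes, 14 of 325 (4.31%) fell in coding exons in libraries numbered replicate 1, 14 of 317 (4.42%) in replicate 2 and 21 of 361 (5.82%) in replicate 3. At the site 10.1 kb downstream of Sp5, the 10 libraries with a peak among the strongest were all of naive ESC, with SOX2, β-catenin and TCF7L1 in 3 of 3 libraries, LEF1 in 1 of 3 and TCF7L2 in none.

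The difference between cell lines in the effect of state (CEpiLC minus naive ESC, less SOX2-OFF minus SOX2-ON, in log10 rank) had an unadjusted exact permutation p below 0.05 at 2 genes for SOX2, Axin2 (0.57, p = 0.02, adjusted p = 0.353) and Notum (0.99, p = 0.035, adjusted p = 0.439). The same held for LEF1 at Nkd1 (−1.47, exact p = 0.03, adjusted p = 0.874) and for TCF7L2 at Notum (0.59, exact p = 0.035, adjusted p = 0.825). None of these passed the adjusted threshold. Over all genes tested, the unadjusted p was below 0.05 at 1837 of 20306 for SOX2, 919 of 20874 for LEF1 and 1004 of 20793 for TCF7L2.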
